A study of Drosophila melanogaster with 3 samples.

Results

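Mitochondria carry their own ribosome, and its protein subunits are encoded by nuclear genes that in Drosophila melanogaster are named mRpL for the large and mRpS for the small subunit. Binding of the transcription factor Achaete (Ac) was examined at the starts of these genes. A gene was a member when it was protein-coding and its symbol began with mRpL or mRpS followed by a digit. This gave 73 of 13968 protein-coding genes, 47 named mRpL and 26 named mRpS. Large and small subunit below follow these names only. The choice used names only and no binding value.

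The measurements were chromatin immunoprecipitation with sequencing (ChIP-seq) of whole embryos, male and female pooled, aged 0 to 8 hours, in 3 biological replicates of 1 group. The ac-GFP line stably expresses Ac with GFP fused to its C terminus, and an antibody against GFP recovered the sonicated chromatin, in fragments of 200 to 800 bp per the labels. There is no second genotype, stage or treatment, so no comparison between conditions exists, and every value below is a description of these replicates. Nothing in the labels ties the replicates to separate embryo collections, so their spread may be technical, and whole embryos mix cells that make Ac with cells that do not.

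The mitochondrial ribosome translates the few proteins that the mitochondrial genome encodes, all of them parts of the oxidative phosphorylation machinery. Its proteins are made in the cytoplasm and imported, and some descend from bacterial ribosomal proteins while others have no bacterial counterpart. Ac is a basic helix-loop-helix factor of the achaete-scute complex that gives cells neural competence, and it binds E-boxes together with its partner Daughterless.

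A member was called bound when the summit of a region in the authors' optimal list lay within 500 bp of a start of its own transcripts. That list holds 2756 peaks on the dm6 build and was derived from all 3 replicates. The authors' pooled list and each replicate's own list hold 30000 regions each, made before any reproducibility threshold. The pooled list is labelled as peaks and background, and 7511 of its regions had a q value of at most 0.05. Regions were ranked within a list by the authors' signal value, rank 1 being the strongest, and the 2756 highest of a replicate are called its top regions. The strongest region at the start of ac itself ranked 65 in the optimal list and 397, 28 and 119 in replicates 1, 2 and 3. Regions at a q value of at most 0.05 numbered 3453, 9954 and 7898 in replicates 1, 2 and 3, so replicate 1 had the fewest.

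Of the 73 members, 8 were bound, or 11.0% (exact 95% binomial interval 4.85 to 20.5%, counting error only). Of all protein-coding genes, 1258 or 9.01% were bound. Long genes were bound more often than short ones in these data, from 2.18% of other genes in the shortest length decile to 17.9% in the longest, and most members are short, with a median length of 909 bp against 2164 bp for all protein-coding genes. The other protein-coding genes of the same length deciles gave an expectation of 3.43 bound members, so the count was 2.33 times the length-matched level. The bound members were mRpS10, mRpS23, mRpL41, mRpL23, mRpS2, mRpS6, mRpL20 and mRpL24, in the order of their peaks.

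In the top regions of replicates 1, 2 and 3, the starts of 11, 8 and 6 members held a summit. These are shares of 15.1%, 11.0% and 8.22%, beside 9.11%, 8.80% and 8.64% of all protein-coding genes. The mean share of members was 11.4% ± 3.45 (SD, n = 3), and the ratio to the length-matched count was 3.06, 2.41 and 1.86, with a mean of 2.44 ± 0.599 (SD, n = 3). The ratio was above 1 in each of the 3 replicates, while the plain share of members lay above that of all genes in replicates 1 and 2 and slightly below it in replicate 3. In all 3 replicates together, 4 members were in the top regions, or 5.48%, against 4.71% of all genes.

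**Figure D1:**
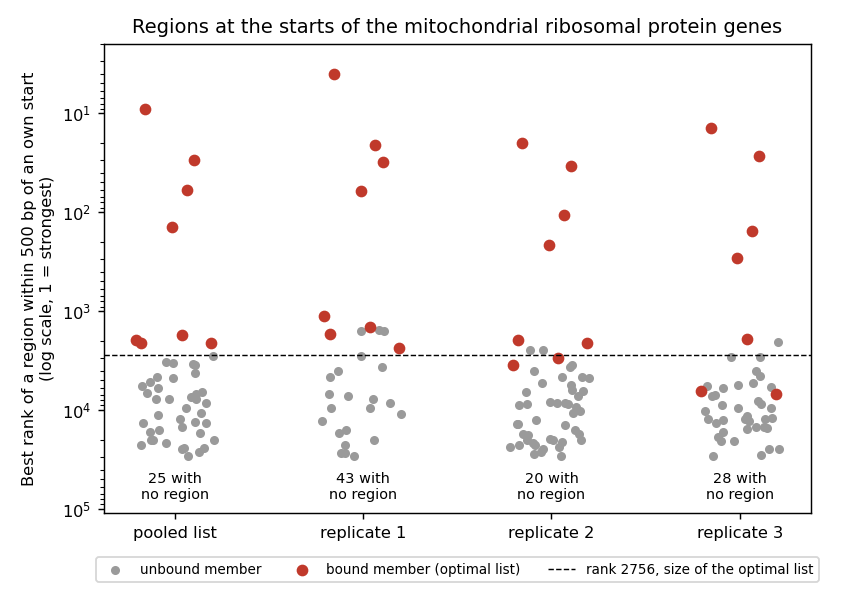
Each point is 1 of the 73 members, placed by the best rank of any region within 500 bp of its own starts in the pooled list and in each replicate list (log scale, 1 is the strongest; the horizontal spread within a list has no meaning). The dashed line marks rank 2756; 4 bound members (red) lie far above it in every list, and 25, 43, 20 and 28 members have no region at their starts in the pooled list and in replicates 1, 2 and 3.

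The bound members fell into a strong and a weak set with no member between them, as the plot of ranks shows. The strong set, mRpS10, mRpS23, mRpL41 and mRpL23, ranked 9 to 142 in the optimal list, and the weak set, mRpS2, mRpS6, mRpL20 and mRpL24, ranked 1746 to 2119. The same 4 strong members, and no others, were at the 1000 highest regions of the optimal list and of replicates 1, 2 and 3. That is 5.48% of members, beside 3.54% of all genes for the optimal list and 4.02%, 3.18% and 3.26% for replicates 1, 2 and 3.

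The strongest peak was at mRpS10 (FBgn0038307), which encodes a small-subunit protein with a bacterial counterpart. Its peak ranked 9 in the optimal list, with a signal of 1130 on the authors' unstated scale and a q value of 0.000221, and 4, 20 and 14 in replicates 1, 2 and 3. All 3 replicates thus placed it among their strongest regions. The summit at position 15229540 of arm 3R lay 125 bp upstream of the mRpS10 start, in intergenic sequence. The start of Art3, an arginine methyltransferase gene that faces the other way, lay 132 bp from the same summit, so the summit is almost midway between the starts.

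The next peak was at mRpS23 (FBgn0260407), a small-subunit protein without a bacterial counterpart. It ranked 30 in the optimal list, with a signal of 855, and 31, 34 and 27 in replicates 1, 2 and 3, the narrowest spread of ranks among the bound members (30.7 ± 3.51, SD, n = 3). The summit at 13835462 of arm 2L was 390 bp upstream of the mRpS23 start but only 102 bp from the start of CenG1A, which encodes an ArfGAP of the centaurin family. It was the bound member with the largest distance, and it was not counted when the window was narrowed to 250 bp.

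The sequence under 3 summits is shown so that the motif counts given further on can be read against the letters. Each window spans 100 bp on either side of a summit and lies wholly outside every annotated gene. The sequences are from the RefSeq release 6 genome (dm6), on the strand of the member, and capitals mark CGATA on either strand, the core recognised by the boundary factor BEAF and contained in the DREF site.
mRpS10, chr3R:15229440-15229640, plus strand: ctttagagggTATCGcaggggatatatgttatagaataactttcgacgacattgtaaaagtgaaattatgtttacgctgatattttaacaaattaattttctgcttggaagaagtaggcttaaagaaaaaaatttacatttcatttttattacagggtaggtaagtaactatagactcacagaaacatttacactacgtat
mRpS23, chr2L:13835362-13835562, minus strand: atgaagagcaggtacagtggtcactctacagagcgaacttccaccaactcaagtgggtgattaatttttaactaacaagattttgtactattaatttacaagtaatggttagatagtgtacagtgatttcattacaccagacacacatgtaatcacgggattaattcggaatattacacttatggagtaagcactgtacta
mRpL20, chr3L:13018011-13018211, minus strand: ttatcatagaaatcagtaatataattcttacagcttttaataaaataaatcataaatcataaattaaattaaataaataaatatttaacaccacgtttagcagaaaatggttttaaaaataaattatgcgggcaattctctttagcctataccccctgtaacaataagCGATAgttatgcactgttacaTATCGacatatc
None of these 3 windows contains CAGCTG or CAGGTG, the E-box cores preferred by proneural factors. The mRpS10 window holds 1 CGATA match, the mRpL20 window holds 2 and the mRpS23 window holds none.

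At mRpL23 (FBgn0035335), a large-subunit protein with a bacterial counterpart, the peak ranked 142 in the optimal list and 61, 213 and 294 in replicates 1, 2 and 3. Its summit at 2373639 of arm 3L lay 39 bp downstream of the start, in the 5′ UTR of mRpL23, and it was the only bound member with a summit inside its own gene. The start of CG9004, on the opposite strand, was 89 bp from that summit. At mRpS2 (FBgn0031639), also with a bacterial counterpart, the peak ranked 1746 in the optimal list and 1442, 2964 and 1917 in replicates 1, 2 and 3. The mRpS2 summit, at 4850582 of arm 2L, was 163 bp upstream of its start and 59 bp from that of Mon1, which encodes a subunit of the exchange factor for Rab7.

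The other weak peaks had less even support. At mRpS6 (FBgn0035534), whose protein has a bacterial counterpart, the peak ranked 1970 in the optimal list and 1111, 3478 and 6420 in replicates 1, 2 and 3, so only replicate 1 held it among its top regions. Its summit, at 4364471 of arm 3L, was 79 bp upstream of its own start, and the start of Cip4, which encodes an F-BAR protein, was 369 bp away. At mRpL20 (FBgn0036335), a large-subunit protein with a bacterial counterpart, the peak ranked 2103 in the optimal list and 2349, 2118 and 6976 in replicates 1, 2 and 3. Its intergenic summit, at 13018111 of arm 3L, was 244 bp upstream of the mRpL20 start and 155 bp from that of Icmt, an isoprenylcysteine methyltransferase gene. At mRpL24 (FBgn0031651), likewise with a bacterial counterpart, the peak ranked 2119 in the optimal list and 1699 and 1949 in replicates 1 and 2, and the list of replicate 3 held no region within 500 bp of its start. That summit, at 4945507 of arm 2L, was 146 bp upstream of the mRpL24 start and 72 bp from the start of betaggt-I, which encodes a protein prenyltransferase subunit.

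The remaining strong peak was at mRpL41 (FBgn0034001), a large-subunit protein without a bacterial counterpart, on arm 2R. It ranked 60 in the optimal list and 21, 107 and 156 in replicates 1, 2 and 3. Its summit at 15217760 was 143 bp upstream of the mRpL41 start, and the nearest other start was that of the non-coding gene lncRNA:CR44463, 435 bp away. It was the only bound member with no other protein-coding start within 500 bp of its own. By arm, 3 of 12 members on 2L, 1 of 12 on 2R, 3 of 17 on 3L, 1 of 21 on 3R and 0 of 11 on X were bound, counts too small to compare.

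Support by replicate split the bound members in the same way, and the ranks in the optimal list come from the same 3 replicates. Optimal peaks with a top-region summit of every replicate within 150 bp were at the starts of 622 of all 1258 bound protein-coding genes. The peaks at 4 of the 8 bound members (50%, exact interval 15.7 to 84.3%) had such support, and these were the strong set. Another 3 had one in a pair of replicates and 1, mRpS6, in a single replicate. All 8 bound members had a region at their starts in the full lists of replicates 1 and 2, and 7 in that of replicate 3.

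**Figure D2:**
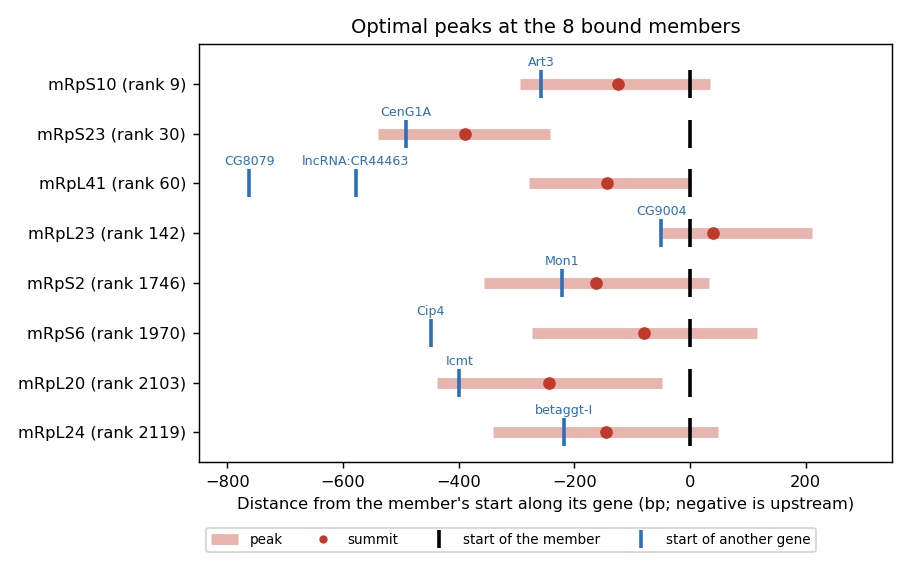
Peaks of the optimal list (bars) and their summits (red dots) at the 8 bound members, drawn in bp from each member's start along its own gene, with starts of other genes in blue. The summits of 7 members lie upstream, at a median distance of 144 bp over all 8, and at mRpS23, mRpS2, mRpL20 and mRpL24 the start of the neighbouring gene is nearer to the summit than that of the member.

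Most members have the start of another gene close to their own. In the map of bound promoters, the summits of mRpS10, mRpS23, mRpS2, mRpS6, mRpL20 and mRpL24 lie between the member's start and that of a protein-coding neighbour within 500 bp. The other two are in the strong set: mRpL41 has no such neighbour, and the mRpL23 summit lies inside mRpL23 itself. Another protein-coding start was within 500 bp of an own start at 54 of 73 members (74.0%), against 30.8% of all protein-coding genes. Of these 54 members 7 were bound (13.0%), and of the 19 without such a neighbour 1 was bound (5.26%). Genes with a near neighbour were bound more often across the genome as well, at 14.6% against 6.52% without one. Within each neighbour class the plain share of members was thus slightly below that of all genes. When the expectation used other genes of the same length decile and the same neighbour status, it rose to 5.93 and the ratio fell to 1.35. In replicates 1, 2 and 3 the ratio on that basis was 1.64, 1.46 and 1.02, with a mean of 1.37 ± 0.318 (SD, n = 3).

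At 4 of the 8 bound members the nearest start was that of the neighbour. Counting only summits with no other gene's protein-coding start nearer left 4 members, mRpS10, mRpL41, mRpL23 and mRpS6, with 7.14% of all genes called by the same rule and a ratio of 1.63. Among the other bound protein-coding genes, 79.4% of 1250 had their own start nearest, and among bound cytoplasmic ribosomal protein genes 96.7% of 61. Which of the neighbouring genes such a peak belongs to cannot be told apart from peak positions.

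By subunit name, 4 of 47 large-subunit genes (8.51%) and 4 of 26 small-subunit genes (15.4%) were bound. The mean shares in replicate top regions were 10.6% ± 4.26 and 12.8% ± 2.22 (SD, n = 3). In replicates 1, 2 and 3 they were 14.9%, 10.6% and 6.38% for the large and 15.4%, 11.5% and 11.5% for the small subunit. The small-subunit share was thus higher in each replicate, but each share rests on 3 to 7 genes and the difference was not tested. By the numbering of the proteins, 42 members belong to families with bacterial counterparts (L numbers up to 36, S numbers up to 21) and 31 to families without. Of the former 6 were bound and of the latter 2. Their mean shares in replicate top regions, 13.5% ± 7.27 and 8.60% ± 1.86, overlapped, and in replicate 3 the order was reversed, at 7.14% and 9.68%. The strong set held a large- and a small-subunit gene of each class, mRpL23 and mRpS10 with bacterial counterparts and mRpL41 and mRpS23 without, while the weak set came entirely from families with bacterial counterparts.

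By length decile, with neighbour status not matched, the excess over other genes lay among the shortest genes. On the same length-only basis, the ratio was 2.88 for the 54 members with a near neighbour. It was 0.979 for the 19 members without one, of which 1 was bound. In replicates 1, 2 and 3 these ratios were 3.89, 2.97 and 2.19 with a neighbour and 0.940, 1.01 and 1.05 without. The 3 shortest deciles contain 62 of the 73 members, and all 8 bound ones. In the shortest decile 3 of 18 members were bound beside 2.18% of other genes, in the next 4 of 26 beside 3.50%, and in the third 1 of 18 beside 6.45%. The longest gene in these 3 deciles was 1343 bp.

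Near the 500 bp limit, the bound members farthest from their summits were mRpS23 at 390 bp, mRpL20 at 244 bp and mRpS2 at 163 bp. The nearest members outside it were mRpL2 at 754 bp, mRpL34 at 1124 bp and mRpL27 at 1270 bp. The 65 unbound members lay a median of 11480 bp from the nearest optimal summit, and 6 of them were within 2000 bp. Most unbound members were therefore far from any optimal peak, and distances for other unbound genes were not computed.

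Below the threshold of the optimal list, lower-ranked regions were common at member starts, many of them at q values above 0.05. Of the 65 unbound members, 40 had a region in the pooled list, 15 of them at a q value of at most 0.05. No unbound member was in the top regions of all 3 replicates, and 6 were in those of a single replicate. These were mRpL34, mRpL11 and mRpL32 in replicate 1, mRpL48 and mRpS21 in replicate 2 and mRpL53 in replicate 3. At mRpL32, the most even of them, the ranks were 1582, 3511 and 2947 in replicates 1, 2 and 3 and 3513 in the pooled list. At mRpL11 they were 1583, 19593 and 5594, and at mRpL34 1566, 8774 and 14890, so replicate 1 alone placed these starts high. At mRpS21 they were 28884, 2473 and 2931, with replicate 1 the low one.

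The pooled list as a whole had a region at 48 of 73 members (65.8%), against 43.8% of all protein-coding genes and a length-matched 30.3%. The same counts in the full lists of replicates 1, 2 and 3 were 30, 53 and 45 members (41.1%, 72.6% and 61.6%). Of all genes, these lists reached 36.6%, 45.4% and 43.0%. In the pooled list, the best-ranked region had a q value of at most 0.05 at 23 of the 48 members. The share of all genes at that q value was not counted for the pooled list, so many of these regions may be background. With length and neighbour status matched, the ratio was 1.54 in the full pooled list. In the full lists of replicates 1, 2 and 3 it was 1.20, 1.59 and 1.43. Replicate 1, which placed the most members in its top regions, had the fewest in its full list. With the 10000 highest pooled regions, 28 members (38.4%) were reached, beside 24.8% of all genes. Its ratio was 2.77 against genes of the same length and 1.62 when neighbour status was matched too. At a q value of at most 0.05, regions reached 12, 29 and 19 members in replicates 1, 2 and 3 (16.4%, 39.7% and 26.0%), beside 10.7%, 24.4% and 19.7% of all genes. Regions in all 4 lists were present at 22 members (30.1%, against 20.7% of other genes), and 10 members had none in any list (13.7%, against 36%). Those 10 were mRpL22, mRpL33, mRpL38, mRpL50, mRpL52, mRpS18A, mRpS25, mRpS34, mRpS35 and mRpS9.

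**Figure D3:**
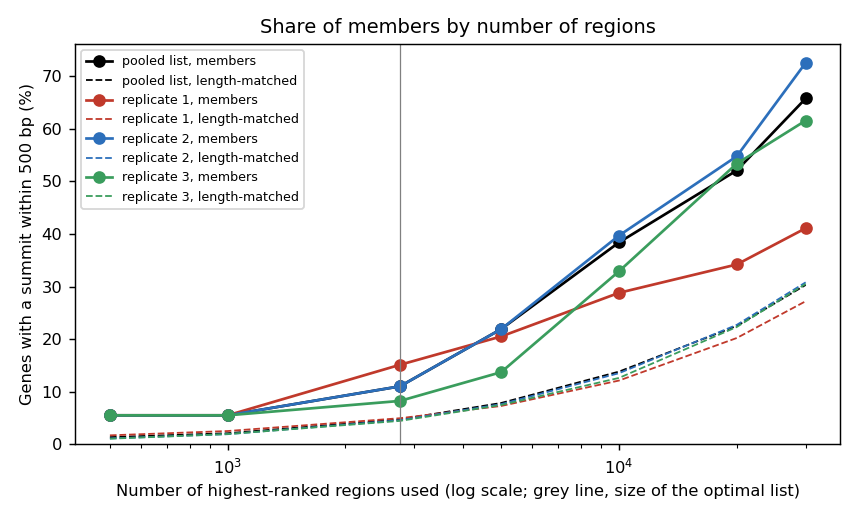
Share of the 73 members with a summit within 500 bp of an own start (solid lines, points) when the 500 to 30000 highest regions of each list are used (log scale), with the share among other genes of the same length deciles (dashed). Members lie above the dashed lines, which do not match neighbour status, at every number of regions in all 4 lists. In the pooled list the ratio was 4.13 in the 500 highest regions, where 4 members were reached, and 2.17 in all 30000. The highest ratio was 5.31, in the 500 highest regions of replicate 3, and the lowest 1.51, in all 30000 of replicate 1.

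Other mitochondrial gene groups were counted in the same way. Of 84 respiratory chain genes, 3 were bound (ND-51, ND-ASHI and ND-MWFE, all of complex I) against a length-matched 5.07. In the top regions of replicates 1, 2 and 3 the counts were 5, 4 and 5. Their ratios to the length-matched count were 0.937, 0.814 and 1.06, so the replicates were close to that level. Neighbour status, near at 48.8% of these genes, was not matched. Of 27 genes of mitochondrial translation and genome maintenance, such as tRNA synthetases and elongation factors, only mtSSB, the mitochondrial single-stranded DNA-binding protein, was bound against 2.24 expected. Of 15 protein import genes 1 was bound, Tom7 of the outer-membrane translocase, against 0.928. The genes tko and bonsai, which encode mitochondrial ribosomal proteins under other names, were both unbound.

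Cytoplasmic ribosomal protein genes differed most. Of 93 such genes, 61 or 65.6% were bound against 5.12 expected, with 63.4% ± 5.69 (SD, n = 3) in replicate top regions, so the lowest replicate there, at 57.0%, was far above the highest for the mitochondrial set, at 15.1%. Their share with a near neighbour was 40.9%. None of 48 proteasome genes was bound (exact 95% interval 0 to 7.40%).

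**Figure D4:**
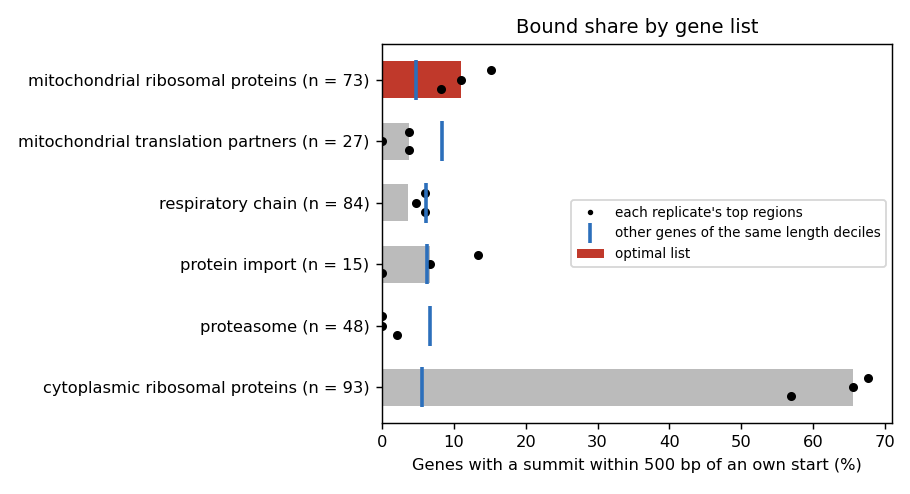
Share of genes with an optimal summit within 500 bp of an own start for each gene list (bars), the share in each replicate's top regions (black points) and the share among other genes of the same length deciles (blue ticks). The mitochondrial ribosomal set stands at 11.0% with replicates from 8.22 to 15.1% and a length-matched 4.70%, and the cytoplasmic ribosomal set at 65.6%.

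The promoters of the members shared a sequence feature that the choice of members did not use. The E-box core CAGCTG, which reads the same on both strands, was present in 40 of 73 member promoters (54.8%), taken from 250 bp before to 50 bp after the annotated start. It was present in 17.5% of the promoters of the other 13895 protein-coding genes, in 15.5% of those of length deciles 1 to 3 and in 23.9% of those with a neighbouring start within 500 bp. Large- and small-subunit genes had it at 57.4% and 50%, and members with and without a near neighbour at 55.6% and 52.6%. Of the genes of mitochondrial translation and genome maintenance 15 of 27 had it, as did both tko and bonsai. The share was lower among respiratory chain genes (23.8%), import genes (26.7%), cytoplasmic ribosomal protein genes (9.68%) and proteasome genes (4.17%).

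The core sat at the start site in the members. Of 45 matches in member promoters, 36 (80.0%) began within 50 bp of the annotated start, against 49.4% of 2740 matches in other promoters. The median position of its first base was 2 bp past the start in members and -52 bp, that is upstream of it, in other genes. The quartiles were -34 and 16 bp in members and -136 and -5 bp in the others.

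**Figure D5:**
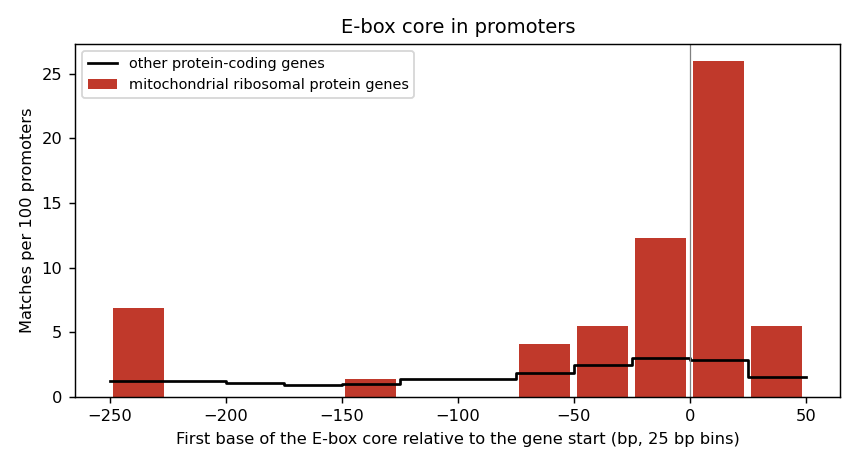
Matches to the E-box core per 100 promoters in bins of 25 bp around the annotated start, for the members (bars) and for the other protein-coding genes (line). The members reach 26.0 matches per 100 promoters in the 25 bp that begin at the start, where other genes have 2.85.

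Windows of 26 bases around the core are shown because the bases beside it differ from the form that Ac is known to prefer. The sequences are from the RefSeq release 6 genome (dm6), on the strand of the member, with the core in capitals. They are a selection made with ranks known: 4 of the 5 bound members that carry the core, then 4 unbound members with high pooled ranks, then a pair with no region in any list. The bound member mRpL41 of the strong set and the unbound member mRpL53, which has the highest pooled rank of the unbound members, also carry the core and are not shown, and mRpL32 is shown with the core nearer its start.
mRpL23, chr3L:2373717-2373742, minus strand: ggttgacaatCAGCTGtttaaaacaa
mRpL24, chr2L:4945326-4945351, minus strand: cagttctcaaCAGCTGattgcaagcc
mRpL24, chr2L:4945583-4945608, minus strand: ccacaaatagCAGCTGcttcttctta
mRpS2, chr2L:4850415-4850440, minus strand: cactacccacCAGCTGtttaccaaaa
mRpS2, chr2L:4850649-4850674, minus strand: taaatcattaCAGCTGgaatggattt
mRpS6, chr3L:4364554-4364579, plus strand: ttccttgcatCAGCTGttaacactat
mRpS6, chr3L:4364570-4364595, plus strand: ttaacactatCAGCTGgtgggtcaac
mRpS21, chr3R:13381792-13381817, minus strand: tgatattcatCAGCTGtttagcagta
mRpL11, chr3R:14511823-14511848, plus strand: gcaataccatCAGCTGttgctgcttc
mRpL21, chr3L:19255069-19255094, minus strand: catgctaacaCAGCTGttcgaaaacg
mRpL32, chr3R:31252846-31252871, plus strand: atcgatagcaCAGCTGtttcctcttg
mRpS25, chrX:14582961-14582986, minus strand: gccgaccgatCAGCTGttcgcattac
mRpS34, chr3L:16348066-16348091, plus strand: ccagccggcaCAGCTGttcgaccttc
In most of them the core is followed by TT. Read on either strand, 28 of 45 cores in member promoters (62.2%) extended to CAGCTGTT, against 1082 of 2740 (39.5%) in other promoters and 15 of 24 (62.5%) in those of mitochondrial translation and genome maintenance. The extended form was in 27 of 73 member promoters (37.0%), 7.46% of other promoters and 2.15% of cytoplasmic ribosomal protein promoters. This extension was chosen after the sequences had been read.

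The form that Ac and Scute bind with Daughterless carries a G before the core. That E-box, GCAGCTG or GCAGGTG on either strand, the first of which contains CAGCTG, was in 6 of 73 member promoters (8.22%) and in 8.74% of other promoters. Of the 90 bases directly beside member cores, read 5′ to 3′ towards the core from each side, 48.9% were A, 32.2% T, 12.2% C and 6.67% G. Beside the cores of other genes 18.8% were G. The other E-box core, CAGGTG, was in 6 member promoters (8.22%) and in 9.35% of the others.

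Binding was counted separately in promoters with and without the core. Of the 40 members with CAGCTG 5 were bound (12.5%), and of the 33 without it 3 (9.09%). In replicates 1, 2 and 3 the counts were 7, 5 and 4 with the core and 4, 3 and 2 without. The 10000 highest pooled regions reached 42.5% of members with the core and 33.3% of those without. The full pooled list had a region at 62.5% of members with the core and at 69.7% of those without, the opposite order. Among other genes, 13.1% of 2428 with the core and 8.13% of 11467 without it were bound. The full pooled list reached 52.8% and 41.8% of them.

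Within 100 bp of the summits of the 8 bound members, CAGCTG occurred at mRpL23, mRpL24, mRpS2 and mRpS6, or 50%, against 20.1% of 954 summits at the starts of other genes and 6.56% of 61 at cytoplasmic ribosomal protein genes. At each of these 4 members the nearest core was near the edge of that window, 93 bp from the summit at mRpL23 and mRpS6, 91 bp at mRpL24 and 82 bp at mRpS2. At mRpL24 and mRpS2 this core began at -237 and -245 bp from the member's start. The neighbouring starts of betaggt-I and Mon1 lay close by, at -218 and -222 bp. The CG9004 start, at position 2373728, lay within the mRpL23 core. The cores at mRpL24 and mRpS2 therefore sit at starts of the neighbours. The mRpL23 core began at -28 bp from the 5′ end of mRpL23, so it is close to both starts. The mRpS6 core began 14 bp past the start of mRpS6 itself, with the Cip4 start at -448 bp. At mRpL41 the core lay 134 bp from the summit. The Ac-type E-box occurred within 100 bp of the summit at mRpL24 alone, or 12.5%, against 15.2% of other summits. It is the more upstream core of mRpL24 in the sequences above, where GCAGCTG is read on both strands.

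Further promoter motifs were looked for in the same windows on both strands. The DREF site TATCGATA was in 20.5% of member promoters, 9.31% of other promoters and 30.1% of cytoplasmic ribosomal protein promoters. It was at none of the 8 bound summits, and at 4.09% of other summits. CGATA, contained in that site, was in 58.9% of member promoters and 47.4% of others. GAGAG, the letters bound by GAGA factor, was less common in member promoters (16.4%) than in others (29.9%). The NRF-1-type core TGCGCATG, known from nuclear genes of mitochondrial function in mammals, was in 1 member promoter (1.37%) and in 1.09% of others, and the Zelda site CAGGTAG was in none and in 1.65% of others.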

How the data were processed

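The authors deposited peak lists on dm6 and dm3, made from replicate alignments and a control alignment, per the file headers and accompanying notes. The optimal list came from the replicate and pooled lists through the irreproducible discovery rate. The peak caller is not given in the sources used here, nor is a threshold. Used from each deposited dm6 region were its position, its summit offset, the authors' signal value, on a scale the files do not state and used only for ranks within a list, and the −log10 of its q value. The lists hold no read counts, so depth is unknown, and intervals (Clopper-Pearson) cover counting error only. The dm3 lists and the control alignment were not analysed here.

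All dm6 regions lay within the release 6 chromosomes. Starts came from Ensembl release 115 gene models (annotation 6.54) and sequence from the RefSeq release 6 genome. Expected counts sum, over length deciles of all protein-coding genes, the members in a decile times the bound share of its other genes. The computation was tested on simulated data and used Python 3.11.15, numpy 2.4.6, pandas 2.3.3 and scipy 1.17.1. Coordinates count from 1. Lists and members were chosen with earlier results of these data known. Named genes were all bound members (the rule allowed up to 12), the 3 members on either side of the 500 bp limit, and unbound members reached by every replicate's top regions, of which there were none. Other members, the tallies beside the E-box core and the counts by neighbour status with 10000 pooled regions were chosen after values were seen. Alternatives tried were the window, the peak threshold, replicate support, the strata, the rule for shared starts and leaving out each replicate.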

Additional observations from a re-analysis of the deposited data

How the results depend on the processing

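The count of 8 bound members was 7 to 9 with windows of 250 and 1000 bp. It was 4 when no start of another gene could be nearer, 4 with the 1000 strongest peaks and 4 with peaks present in all 3 replicates, and it ranged from 4 to 6 when each replicate was left out, which uses only peaks supported by both others. The count was lowest, at 4, without replicate 1. The ratio of 2.33 became 1.63 with no start of another gene nearer, 1.22 without length strata and 1.35 with length decile and a near neighbour as strata. It ranged from 1.82 to 2.51 when each replicate was left out, and was 1.62 with the 10000 highest pooled regions and both strata, an alternative chosen after seeing the data. These ratios stayed above 1 and were lowest where length was not matched or neighbour status was. Neighbour status without length was not tried as strata. Within each neighbour class the plain share of members was below that of all genes (13.0% against 14.6%, and 5.26% against 6.52%). The mean replicate share of 11.4% was 5.48% with the 1000 highest regions, 27.4% with regions at q of at most 0.05, and 9.59 to 13.0% when each replicate was left out. The share of bound members present in all 3 replicates, 50%, was 87.5% in the full lists and 50 to 75% when each replicate was left out. Of 39 motif alternatives, 13 moved a count by over 1.5 times. Counts of a few genes limit each value, depth is unknown, and annotated starts can be off by some bases.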
